A study of Mus musculus with 2 samples.

Results

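The expression of 10 genes of prostaglandin synthesis, reception and breakdown was examined in cultured mouse cavernous endothelial cells (MCECs) under high glucose, with and without pericyte-derived nanovesicles. These were the cyclooxygenases Ptgs1 and Ptgs2, the terminal synthases Ptges, Ptges2, Ptgis and Ptgds, the receptors Ptger2, Ptger4 and Ptgir, and the breakdown enzyme Hpgd. All 10 were listed among the 23183 gene symbols of the series, in 11 rows of 33299. Each condition gave 1 RNA library. Cells of the HG+HBS library, called saline below, received HEPES-buffered saline in 30 mM glucose, and cells of the HG+PC-NVs library received nanovesicles (PC-NVs) at 1 µg/mL in the same glucose. PC-NVs are particles made by extruding cultured cavernous pericytes, and RNA of the particles themselves was not analysed here. MCECs of both groups were primary cells that sprouted from penis tissue and were used at passages 2 to 4. The methods give a culture medium with serum and 5 ng/mL VEGF, and 24 hours of serum starvation before the glucose condition. Both the MCECs and the pericytes came from male C57BL/6J mice, 8 weeks old per the study's methods. The methods place RNA isolation 72 hours after the glucose condition began and 24 hours after the nanovesicles were added, whereas the sample labels give 5 days of glucose.

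Prostaglandins are lipid mediators made from arachidonic acid, which phospholipases release from membranes. A cyclooxygenase, either the widely expressed Ptgs1 (COX-1) or the inducible Ptgs2 (COX-2), turns it into prostaglandin H2, and terminal synthases then make prostaglandin E2, prostacyclin or prostaglandin D2 from it. In vessels, prostacyclin relaxes smooth muscle and holds back platelets, while prostaglandin E2 takes part in inflammation, permeability and vessel growth. Both act through G protein-coupled receptors, and Hpgd starts the breakdown of prostaglandin E2.

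Values are FPKM, fragments scaled to transcript length and library size, as normalized and deposited by the authors, with the rows of a symbol summed. Log2 ratios are PC-NVs over saline of the FPKM value plus 1. Since there was 1 library for each condition, no difference was tested, no value below has a replicate check, and a difference of at least 2-fold on that scale was used as the rule for calling a gene higher or lower. Low values placed the libraries at about 13300000 fragments with saline and 11600000 with PC-NVs. Fold changes of FPKM carry a 95% Wilson interval from these estimated fragments, which covers counting error only.

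The labelled cell type was compared with marker genes, since levels of the prostaglandin genes depend on which cells the cultures held. Of 12 endothelial markers, 7 were under 1 FPKM in both libraries. Only 4 averaged at least 1 on the log2 scale, and 0 of these 4 were past 2-fold. Vwf had 0.158 FPKM with saline and 0.128 FPKM with PC-NVs, Kdr 0.518 and 0.438, and Pecam1 1.05 and 0.938. Cdh5 was detected at 5.05 and 5.73 FPKM and Eng at 29.0 and 21.4 FPKM. The 8 fibroblast markers were high, with a summed level of 2068 FPKM with saline and 2368 FPKM with PC-NVs, beside 48.0 and 39.1 FPKM for the 12 endothelial markers. The fibroblast and mesenchymal markers Pdgfra and Thy1 were high in both, Pdgfra at 149 FPKM with saline and 129 with PC-NVs, and Thy1 at 549 and 412 FPKM. Both libraries labelled as endothelial cells thus held little Vwf, Kdr and Pecam1 RNA, and what part this has in the level of any prostaglandin gene was not tested. In bulk RNA, fewer cells of a type and less RNA per cell cannot be told apart.

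Of the 10 prostaglandin genes, 7 averaged at least 1 on the log2 scale over the libraries and were counted. Ptgds, Ptger4 and Hpgd did not reach it. Of the 7, 2 were at least 2-fold higher with PC-NVs and 0 were lower. Over all 11785 genes that passed the same filter, 2.38% were at least 2-fold higher and 0.798% at least 2-fold lower. The median log2 ratio of the 7 was 0.02, beside -0.01 for all genes.

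**Figure D1:**
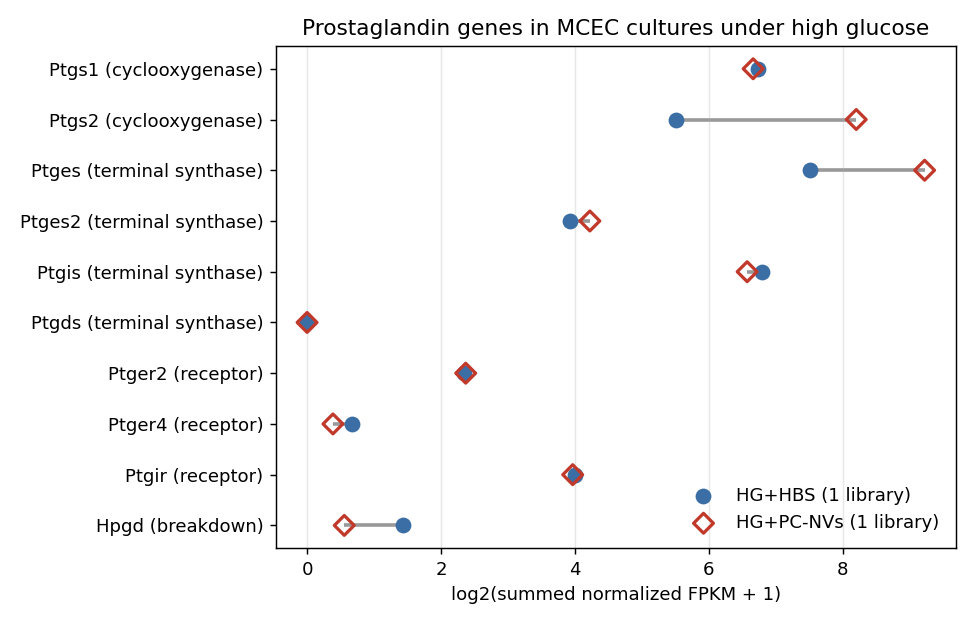
Level of each of the 10 prostaglandin genes as log2(summed normalized FPKM + 1) on the horizontal axis, with a filled circle for the HG+HBS library and an open diamond for the HG+PC-NVs library, joined by a line. Ptgs2 moved from 5.51 to 8.20 and Ptges from 7.52 to 9.22, while the symbols of Ptgs1, Ptgis, Ptger2 and Ptgir lie close together or overlap.

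The cyclooxygenase genes parted. Ptgs2, which encodes the inducible enzyme COX-2, lies on chromosome 1 of GRCm38 from 150100031 to 150108227 on the forward strand. It had 44.5 FPKM with saline and 293 FPKM with PC-NVs. This was a 6.59-fold higher FPKM (interval 6.32 to 6.87), from about 2639 and 15164 fragments, and a log2 ratio of 2.69. Among the 10 genes it was alone past a 4-fold difference, which 0.636% of all tested genes reached in the same direction. A higher log2 ratio was found in 36 of the 11785 genes. By level among all symbols, Ptgs2 ranked 1846 with saline and 274 with PC-NVs.

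Ptgs1 encodes COX-1, which most tissues express steadily (chromosome 2, 36230426 to 36252272). It had 105 FPKM with saline and 100.2 FPKM with PC-NVs, a log2 ratio of -0.07. The order of both cyclooxygenase genes thus differed between the libraries. Ptgs1 was the higher with saline, where Ptgs2 made up 29.7% of their summed FPKM, and Ptgs2 was the higher with PC-NVs, where it made up 74.5%. The sum itself went from 149.9 to 393 FPKM, a factor of 2.63.

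Among the terminal synthases, Ptges stood apart. It encodes microsomal prostaglandin E synthase-1, the inducible enzyme that often works with COX-2 (chromosome 2, 30889471 to 30929863, reverse strand). It had 182 FPKM with saline and 596 FPKM with PC-NVs, the highest level of the 10 genes in both libraries. The FPKM was 3.28-fold higher (interval 3.20 to 3.36), with a log2 ratio of 1.71 that 100 of the tested genes exceeded. Its rank by level went from 396 to 148.

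To show the control regions of the genes that parted, the 250 bases before the annotated start of Ptgs2, Ptges and Ptgs1 are printed here from RefSeq (GRCm38.p6), 5′ to 3′ on the strand of the gene. The promoter table held 9 of the 10 genes, without Ptgis. Capitals mark matches to any of 7 motifs searched on both strands. These were the E-box CACGTG, the cAMP response element half-site TGACG, a C/EBP motif TTGCNNAA, an AP-1 motif TGANTCA, an Egr-1 core GTGGGCG, the GC box GGGCGG, which overlaps the Egr-1 core where they meet, and the NF-kB motif. The Ptgs2 stretch is chr1:150099781-150100030 (forward strand), the Ptges stretch chr2:30903298-30903547 (reverse strand) and the Ptgs1 stretch chr2:36230176-36230425 (forward strand). The RefSeq start of Ptges used here lies inside the longer span that GENCODE gives the gene.
Ptgs2: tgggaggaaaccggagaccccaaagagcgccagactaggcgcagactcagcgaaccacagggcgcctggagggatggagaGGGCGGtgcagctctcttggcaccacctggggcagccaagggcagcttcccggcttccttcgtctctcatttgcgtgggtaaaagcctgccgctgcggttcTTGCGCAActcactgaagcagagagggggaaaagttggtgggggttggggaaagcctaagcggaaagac
Ptges: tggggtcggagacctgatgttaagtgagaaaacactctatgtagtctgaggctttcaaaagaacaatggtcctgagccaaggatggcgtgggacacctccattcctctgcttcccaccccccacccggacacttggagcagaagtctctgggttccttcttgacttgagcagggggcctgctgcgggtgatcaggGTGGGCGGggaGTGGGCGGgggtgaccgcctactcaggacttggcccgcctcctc
Ptgs1: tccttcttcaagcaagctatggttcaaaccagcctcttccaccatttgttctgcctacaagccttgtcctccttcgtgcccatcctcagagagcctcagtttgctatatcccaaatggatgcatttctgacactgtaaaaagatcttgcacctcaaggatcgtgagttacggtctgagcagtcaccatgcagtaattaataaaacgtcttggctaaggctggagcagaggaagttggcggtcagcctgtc

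The motifs were counted over 300 bases, from 250 before to 50 after each start. In Ptgs2 a GC box lay 170 to 165 bases before the start and a C/EBP motif 69 to 62 bases before it, and 10.8% of all 32851 promoter windows held a C/EBP motif. An E-box at positions 17 to 22 after the start, which 7.2% of windows held, overlapped a CRE half-site at positions 14 to 18, which 20.8% held. In Ptges the Egr-1 core occurred at 55 to 49 and at 44 to 38 bases before the start, each overlapping a GC box. One or more Egr-1 cores were found in 8.0% of windows and 2 or more in 0.88%, and Hpgd held 2 as well, on the other strand. A GC box was found in 35.7% of windows, an AP-1 motif in 7.8% and the NF-kB motif in 4.5%. The Ptgs1 window matched none of the 7. Neither AP-1 nor NF-kB letters occurred in the Ptgs2 or Ptges windows, which says only that they are not in these 300 bases. A match is a description of the letters, and binding was not measured.

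The other prostaglandin E synthase genes were lower and differed little. Ptges2, which encodes a membrane-associated enzyme, had 14.2 FPKM with saline and 17.7 FPKM with PC-NVs, a log2 ratio of 0.29. Ptges3, which encodes the cytosolic synthase also known as the co-chaperone p23 and is not among the 10, had 59.0 and 71.4 FPKM, a log2 ratio of 0.27. Ptges made up 71.3% of the summed FPKM of these 3 genes with saline and 87.0% with PC-NVs. The sum went from 255 to 685 FPKM, a factor of 2.69.

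Ptgis encodes prostacyclin synthase (chromosome 2, 167191805 to 167240604). It had 110.3 FPKM with saline and 94.1 FPKM with PC-NVs, a log2 ratio of -0.23, within the 2-fold limits. Its level was close to that of Ptgs1 in both libraries. The FPKM of Ptges was 1.65 times that of Ptgis with saline and 6.33 times with PC-NVs. Ptgds, the lipocalin-type prostaglandin D synthase (chromosome 2, 25466709 to 25470046), was listed at 0 in both libraries.

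**Figure D2:**
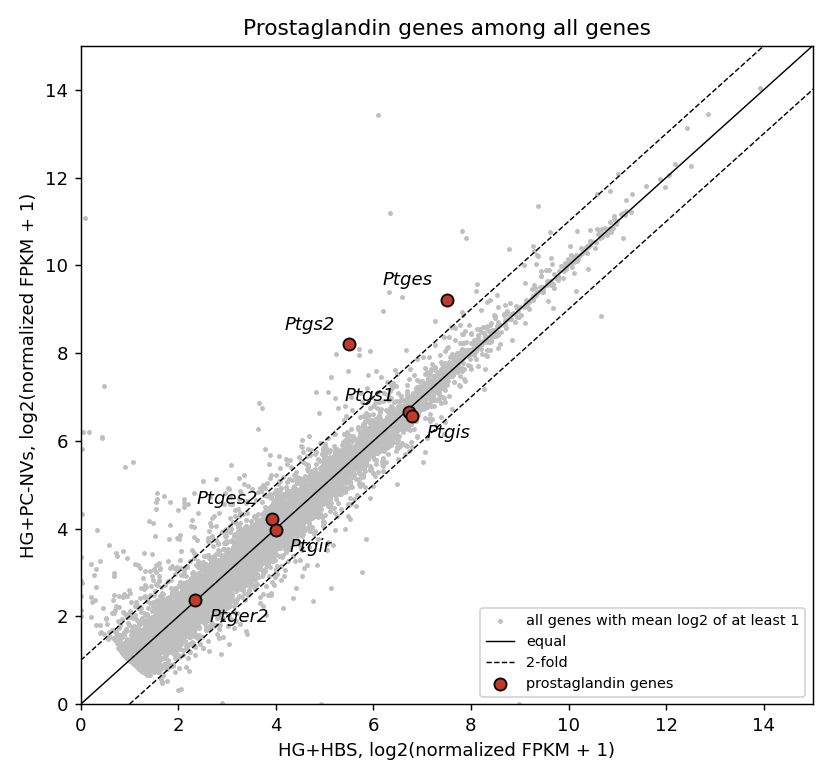
Each grey point is 1 of the 11785 genes that averaged at least 1 on the log2 scale, with log2(normalized FPKM + 1) of the HG+HBS library on the horizontal axis and of the HG+PC-NVs library on the vertical axis, and red points are the 7 prostaglandin genes that passed this filter. Ptgs2 and Ptges lie above the upper dashed 2-fold line, and the other 5 lie near the line of equal values.

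The receptor genes had at most 14.9 FPKM, and none of the 3 passed the 2-fold difference. Ptgir, the prostacyclin receptor (chromosome 7, 16906490 to 16910905), had 14.9 FPKM with saline and 14.6 FPKM with PC-NVs. Its FPKM ratio was 0.979 with an interval of 0.875 to 1.10, from about 658 and 562 fragments. Ptger2 encodes the EP2 receptor for prostaglandin E2, which raises cAMP (chromosome 14, 44988195 to 45003820). It had 4.08 and 4.17 FPKM, a ratio of 1.02 with an interval of 0.835 to 1.25. For both receptors the interval of counting error thus included 1.

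Ptger4 encodes EP4, the other cAMP-raising receptor for prostaglandin E2 (chromosome 15, 5206661 to 5244187). It was under 1 FPKM in both libraries, with 0.599 with saline and 0.307 with PC-NVs, from about 26.2 and 11.7 fragments. Its pair of rows went in different directions, from 0.599 to 0.162 FPKM in one row and from 0.000646 to 0.145 FPKM in the other. At this depth a difference in its sum was not detectable, since the interval of the FPKM ratio ran from 0.261 to 1.01.

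Hpgd encodes 15-hydroxyprostaglandin dehydrogenase, which inactivates prostaglandin E2 (chromosome 8, 56294585 to 56321043). It had 1.70 FPKM with saline and 0.469 FPKM with PC-NVs, from about 38.1 and 9.18 fragments. The FPKM was 3.62-fold lower with PC-NVs, with an interval of 1.79 to 7.33. The log2 ratio of FPKM plus 1 was only -0.88, because adding 1 shrinks the difference of a gene at this level, and the mean log2 value of 0.99 was just under the filter. With a pseudocount of 0.1 the log2 ratio was -1.66. The lower value rests on few fragments.

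The printed Ptgs2 stretch also holds the start of a second gene. Ptgs2os, a noncoding RNA transcribed away from Ptgs2, starts 157 bases before Ptgs2 in RefSeq. A further noncoding RNA, Ptgs2os2, known in mouse macrophages as lincRNA-Cox2, lies on the reverse strand of chromosome 1 from 150159043 to 150164948. These noncoding genes and the other neighbours were looked up after their values had been seen. Ptgs2os2 had 0.931 FPKM with saline and 9.03 FPKM with PC-NVs, a 9.70-fold higher FPKM (interval 6.23 to 15.1), from about 21.6 and 183 fragments. Ptgs2os had 0.732 and 2.31 FPKM, a 3.15-fold higher FPKM (interval 2.06 to 4.82). On the log2 scale of FPKM plus 1 the ratios were 2.38 for Ptgs2os2, past 4-fold like Ptgs2, and 0.93 for Ptgs2os, just within 2-fold. Both noncoding RNAs were far below Ptgs2 in level. The FPKM of Ptgs2 was 47.8 times that of Ptgs2os2 with saline and 32.5 times with PC-NVs.

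Within 300000 bases on either side of Ptgs2, 15 genes are annotated in GENCODE M21 and 7 had a value under the same symbol. Pla2g4a, which encodes the cytosolic phospholipase A2 that releases arachidonic acid for the cyclooxygenases, starts 138741 bases from Ptgs2 on the other strand. It had 26.1 FPKM with saline and 37.8 FPKM with PC-NVs, a log2 ratio of 0.52, below the 2-fold rule. Tpr, a nuclear pore gene at the far end of the window, had 29.6 and 28.5 FPKM, a log2 ratio of -0.05. The other 2 neighbours, Pdc and an antisense gene, were at most 0.131 FPKM. On the log2 scale of FPKM plus 1, the differences past 2-fold among the 7 genes with a value were those of Ptgs2 and Ptgs2os2. Without the 1 added, the FPKM of Ptgs2os was also past 2-fold, at 3.15-fold.

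**Figure D3:**
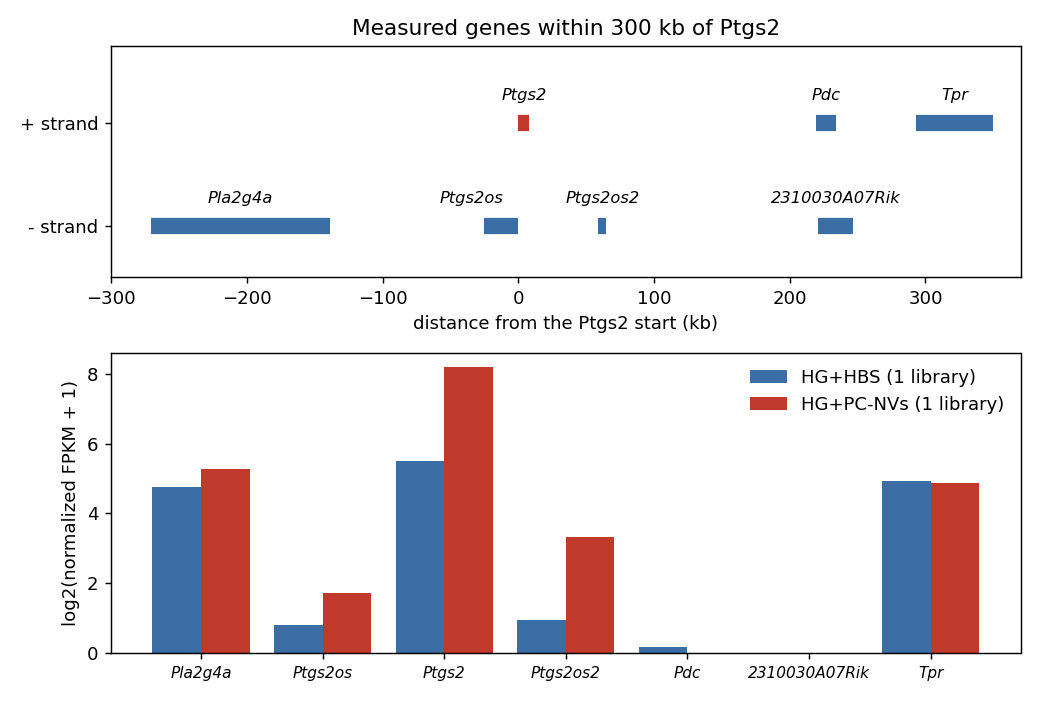
The upper panel places the 7 measured genes around Ptgs2 by distance from its start in kb, with the forward strand above and the reverse strand below. The lower panel gives log2(normalized FPKM + 1) of each gene in HG+HBS (blue) and HG+PC-NVs (red), where Ptgs2, Ptgs2os2 and Ptgs2os have the taller red bars and Pla2g4a and Tpr differ by less.

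The genes nearest to Ptgs2 by their pair of log2 values, a likeness over only 2 libraries, were Ier3, Odc1, Cd14, Mmp13 and Cp. Ier3, an immediate early response gene, had 51.5 FPKM with saline and 274 FPKM with PC-NVs, at a distance of 0.23 log2 units. Odc1, the first enzyme of polyamine synthesis, had 51.3 and 249 FPKM. Cd14, a co-receptor for bacterial lipopolysaccharide, had 36.6 and 252 FPKM. Mmp13, a collagenase, had 60.1 and 263 FPKM, and Cp, the copper-carrying ceruloplasmin, had 43.8 and 191 FPKM at a distance of 0.62.

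The rest of the pathway was counted list by list. Over all tested genes, 2.38% were at least 2-fold higher and 0.798% at least 2-fold lower. Of 16 phospholipase A2 genes, 8 passed the filter, 1 was at least 2-fold higher and 0 were lower, with a median log2 ratio of 0.13. The one was Pla2g7, which encodes the platelet-activating factor acetylhydrolase rather than a main source of arachidonic acid. It had 8.02 FPKM with saline and 18.6 FPKM with PC-NVs. By mean log2 level over both libraries, Pla2g4a was the highest of the list and Pla2g15, a lysosomal enzyme with 17.9 and 14.1 FPKM, came next.

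Of 6 further synthase and reductase genes, 5 passed the filter and 1 was at least 2-fold higher, with a median log2 ratio of 0.27. This was Akr1b3, an aldose reductase that can also make prostaglandin F2 alpha. It had 4.11 FPKM with saline and 9.50 FPKM with PC-NVs, a log2 ratio of 1.04 close to the 2-fold limit, and the reads of related aldo-keto reductase genes could have been shared with it. Cbr1, a carbonyl reductase acting on prostaglandin E2, had 43.1 and 36.5 FPKM. Hpgds, the prostaglandin D synthase of immune cells, and Tbxas1, thromboxane synthase, were at most 1.21 FPKM in either library.

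The 7 further receptor genes included 3 that passed the filter, and 0 of these were past 2-fold. Their median log2 ratio was -0.34. Pparg, a nuclear receptor that binds prostaglandin D2 metabolites, had 12.9 FPKM with saline and 9.59 FPKM with PC-NVs. Ptgfr, the receptor for prostaglandin F2 alpha, had 6.45 and 8.55 FPKM. Ptger3, Ptgdr, Ptgdr2 and Tbxa2r were under 1 FPKM in both libraries.

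Of the 5 genes of prostaglandin transport and further breakdown all passed the filter and 0 were past 2-fold, with a median log2 ratio of 0.23. The ratios of 4 were above 0 and that of 1 below. Abcc4, a transporter, had the largest, 0.67, at 3.90 FPKM with saline and 6.77 FPKM with PC-NVs. Zadh2 and Ptgr1, which encode reductases of prostaglandin metabolites, had the highest levels. Zadh2 had 32.6 FPKM with saline and 41.7 FPKM with PC-NVs, and Ptgr1 had 21.8 and 25.7 FPKM. The lipoxygenase branch, which makes leukotrienes from the same arachidonic acid, was mostly low. Of the 14 genes listed for it, 10 were under 1 FPKM in both libraries. None of the 3 that passed the filter was past 2-fold. The 3 included Ephx2, an epoxide hydrolase rather than a leukotriene enzyme. Lta4h, which makes leukotriene B4, had 45.5 and 40.9 FPKM, and Alox5ap, the activating protein of 5-lipoxygenase, had 2.92 and 3.04 FPKM.

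Genes known to respond to cAMP, the second messenger of EP2, EP4 and the prostacyclin receptor, were mostly higher with PC-NVs. Of 12 such genes, all 12 passed the filter, 7 were at least 2-fold higher and 0 were lower, beside 2.38% of all genes higher. The median log2 ratio was 1.01. The 7 were Nr4a1, Nr4a2, Crem, Pde4b, Pde4d, Fos and Dusp1. Nr4a1, a nuclear receptor of the immediate early class, had 15.8 FPKM with saline and 49.5 FPKM with PC-NVs, and its relative Nr4a2 had 24.8 and 68.4 FPKM. Crem, which encodes a cAMP-induced transcription factor, had 22.5 and 52.5 FPKM, while Pde4b, a phosphodiesterase that degrades cAMP, had 15.6 and 33.0 FPKM. Rgs2, a regulator of G protein signalling, had 31.2 and 58.1 FPKM and was within 2-fold. Per1 was nearly equal, with 7.13 and 7.18 FPKM. Pde4b, Pde4d, Fos and Dusp1 had log2 ratios from 1.01 to 1.03, so that upper-quartile scaling left 3 of the 12 past 2-fold. These genes also answer growth factors and inflammatory signals, and cAMP was not measured.

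**Figure D4:**
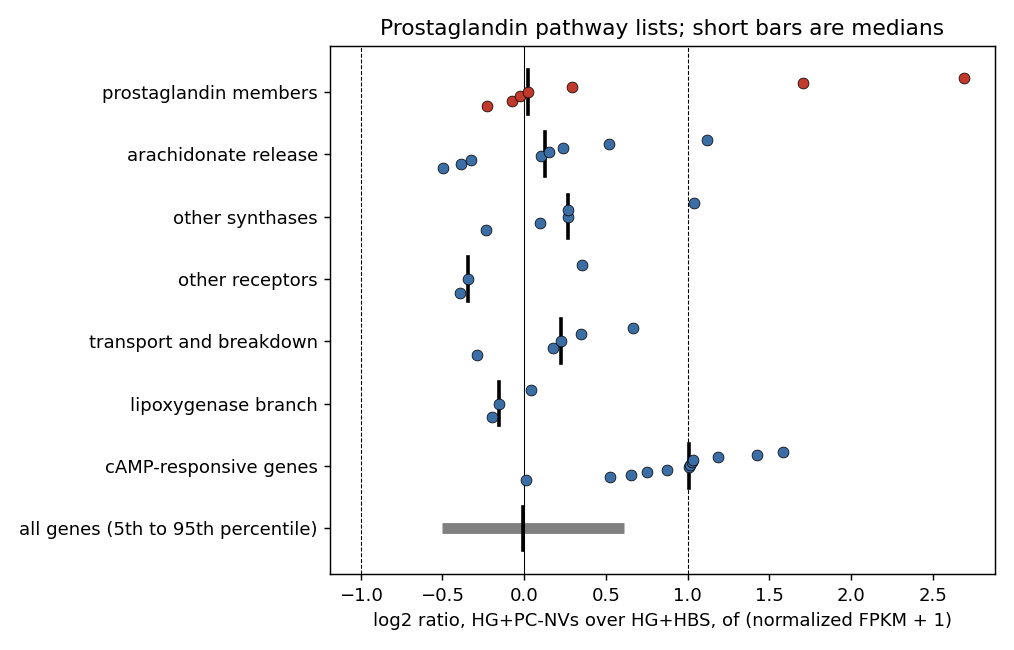
Each point is a gene that passed the filter, placed by its log2 ratio of HG+PC-NVs over HG+HBS, with the 7 prostaglandin members in red, the pathway lists in blue, short black bars for medians and a grey bar for the 5th to 95th percentile of all tested genes (-0.50 to 0.61). Ptgs2 and Ptges lie to the right of the dashed 2-fold line at 1, the other pathway lists have medians from -0.34 to 0.27, and the cAMP-responsive genes centre at 1.01.

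Markers of other cells moved with Ptgs2 and Ptges in part. As a baseline for the counts, 2.38% of all tested genes were at least 2-fold higher and 0.798% at least 2-fold lower. Of the 10 myeloid markers, 9 passed the filter, 3 were at least 2-fold higher and 0 were at least 2-fold lower. Among the 9, 5 had log2 ratios above 0 and 4 below, with a median of 0.13. The summed level of the 10 went from 308 to 537 FPKM, mostly through Cd14 at 36.6 and 252 FPKM. The 3 were Cd14, Adgre1, at 7.44 and 42.5 FPKM, and Aif1, at 2.93 and 12.9 FPKM. The others of the list were closer, with Lyz2 at 212 and 193 FPKM and Ptprc, the common leukocyte antigen, at 1.44 and 1.67 FPKM. Of the 8 pericyte markers, 7 passed the filter and 2 were at least 2-fold higher, Rgs5 at 1.69 and 7.23 FPKM and Kcnj8 at 7.98 and 20.4 FPKM. Of the other 5, Abcc9 had a log2 ratio of 0.53 and 4 had ratios below 0, among them Cspg4 at 20.4 and 12.2 FPKM and Pdgfrb at 38.4 and 33.7 FPKM. The median log2 ratio of the 7 was -0.18, and the summed levels of the 8 were 76.1 and 80.4 FPKM. Des, which missed the filter, had 1.07 and 0.137 FPKM. Of the 6 smooth muscle markers, 3 passed and 2 were at least 2-fold lower, Acta2 at 27.6 and 8.02 FPKM and Tagln at 17.3 and 7.34 FPKM, with summed levels of 71.0 and 36.8 FPKM. All 6 mast cell markers were under 1 FPKM in both libraries, as were 4 of the 5 epithelial markers. The other one, Krt18, was at least 2-fold lower, at 9.61 and 2.05 FPKM. Of the 8 fibroblast markers, Dcn alone was at least 2-fold higher, at 623 and 1283 FPKM. The other 7 had log2 ratios from -0.65 to -0.21, with 312 and 198 FPKM for Col1a2, and the median of the 8 was -0.33, so the higher summed level with PC-NVs came from Dcn. The part of these cells in the difference of Ptgs2 and Ptges was not tested.

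**Figure D5:**
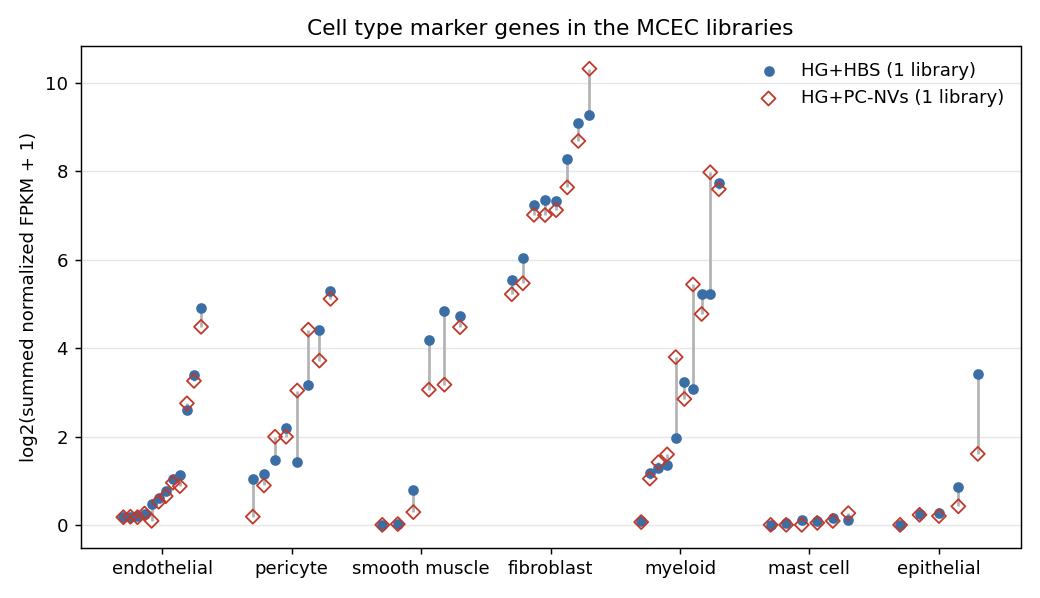
Each pair of symbols is 1 marker gene, with log2(summed normalized FPKM + 1) on the vertical axis, a blue circle for HG+HBS and an open red diamond for HG+PC-NVs, grouped by cell type and ordered by level within it. Fibroblast markers sit highest, most endothelial markers lie near 0, and 3 myeloid markers have diamonds well above their circles.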

How the data were processed

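Total RNA of MCECs was made into poly(A)-selected stranded libraries and sequenced as paired ends. Per the labels and methods, the authors removed adapters and low-quality bases, mapped with TopHat to mm10, derived counts and FPKM by BEDTools and Cufflinks, and used edgeR for normalization. Versions and the annotation are not given in the sources used here. The authors deposited log2 values of normalized FPKM plus 1, with 1 library per condition. That the scale is log2 of FPKM plus 1 was inferred from the values, whose low end fell into even steps once converted back. Although the methods name quantile normalization, 2318 of the 33299 sorted values differed by more than 0.05 between the libraries.

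Values were converted back to FPKM, summed over the rows of a symbol and used as deposited, with a pseudocount of 1. No p-value was computed. The 10 genes, the lists and the alternatives were chosen with earlier results of these data known. The genes named were the 10, pathway genes past 2-fold or among the 2 highest of their list, and the 5 nearest to Ptgs2. Further pathway and marker genes, and the neighbours of Ptgs2, were named after their values were seen. The level of 1 further receptor gene that this rule names is not reported here.

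The worth of 1 fragment was the most frequent low value above 0.001 FPKM, times length, among 2189 genes with a single transcript longer than 1500 nt. The 2 libraries gave 0.0751 (HG+HBS) and 0.0861 (HG+PC-NVs). The next peak was sought only around 2 times that value and lay at 2 times it, so its place is no independent check. Fragments per gene used the median length of a gene's GENCODE M21 (GRCm38) transcripts, those with a RefSeq match where there were any, and are approximate. The log2 ratios and 2-fold calls were tested on simulated data, with known fold changes put into copies of the HG+HBS library. The fragment estimates and the intervals were not part of that test. Scripts ran on Python 3.11.15 (numpy 2.4.6, scipy 1.17.1, pandas 2.3.3, with plots by matplotlib 3.10.9).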

Additional observations from a re-analysis of the deposited data

How the results depend on the processing

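Of 60 alternative log2 ratios of the prostaglandin genes, 57 moved by less than the counting error and 59 kept their sign, the exception being Ptger2 near 0. Part of the 60 could not move. A changed filter leaves the ratio of a single gene as it was, and the choice of row acts only on Ptger4. The ratio of Ptgs2 ran from 2.57 to 2.72 and that of Ptges from 1.53 to 1.72. Both ratios were lowest with quantile normalization between the libraries, which gave -0.15 for Ptgs1 and, in HG+PC-NVs, a Ptgs2 share of 73.8% and a Ptges share of 86.3%. The number of prostaglandin genes at least 2-fold higher was 2, except that a 4-fold rule left 1. That rule called 75 genes higher and 7 lower over all genes, against 281 and 94 with 2-fold, and 0 of the cAMP-responsive genes. A pseudocount of 0.1 gave 344 higher and 190 lower genes and a median of 1.13 for the cAMP-responsive list. Upper-quartile scaling left 3 cAMP-responsive genes past 2-fold, a count chosen after seeing the data. With a minimum mean of 3 on the log2 scale, 160 genes were higher and 49 lower, the median of the prostaglandin genes was 0.13 and that of the other synthases 0.10. With the highest row in place of the sum the median of the other receptors was -0.23, and without a filter that of the lipoxygenase branch was 0.039, against -0.15. Fewer or more genes tested accounts for the changes with the filter, and otherwise the cause was not tested. No paired analysis was possible because each condition has 1 library, and no replicate could be left out. Depth limits Ptger4 and Hpgd.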
